A study of Mus musculus with 3 samples.

Results

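H3R2me2s, the symmetric dimethylation of arginine 2 on histone H3, was set beside H3K4me3, the trimethylation of lysine 4 on the same tail, by chromatin immunoprecipitation and sequencing (ChIP-seq). The comparison covers 58023 bins of 1 kb, chosen because they held 15 or more H3R2me2s reads or 25 or more H3K4me3 reads. They make up 2.6% of the 2234829 bins with a read in either library. Reads had first been moved 75 bp towards the centre of their fragments. Both libraries came from Abelson-transformed pro-B cells that lack RAG2 (RAG2-/-), grown in culture, with the strain given as C57BL/7. Pro-B cells stand at an early step of B cell development, before a complete antigen receptor is made. Transformation with Abelson virus lets them divide in culture without end. RAG2 is needed, with RAG1, to cut and join antigen receptor gene segments. The H3R2me2s antibody was made in the submitting laboratory and the H3K4me3 antibody was bought from Abcam. There was 1 library per antibody, from 1 cell line, and no input library was used here, so no difference between the marks has a replicate check.

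H3K4me3 is the standard mark of nucleosomes at the start sites of active and poised genes. It is placed by the SET1 and MLL methyltransferase complexes, of which WDR5 is a core subunit. The symmetric form of H3R2 dimethylation is placed by arginine methyltransferases of the PRMT5 and PRMT7 kind, and WDR5 can bind the tail that carries it. The asymmetric form, placed by PRMT6, is known for counteracting H3K4 methylation. The comparison asks how the symmetric form is placed relative to H3K4me3, in which amount and at which distance.

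The H3R2me2s library held 6923765 reads and the H3K4me3 library 13898471. Reads that repeated a start and strand made up 5.22% and 6.20% of them. Within the chosen bins, reads on opposite strands lay 146 bp apart most often for H3R2me2s and 139 bp apart for H3K4me3, so the fragments had like sizes and the shift of 75 bp was near 50% of both. The chosen bins held 18.6% of H3R2me2s reads and 45.3% of H3K4me3 reads. Intervals below are 95% intervals that cover counting error within each library only. Reads from PCR carried no molecular identifiers, so they are not all separate molecules. Gene names are not given, because the reference tables used here are on another build than the mm9 reads. The cell type was not checked by marker genes for the same reason.

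H3R2me2s was called in 28193 bins, 1.26% of all bins, and H3K4me3 in 56039 bins, 2.51% of all bins. Both were called in 26209 bins, 1.17% of all bins. Of the H3R2me2s bins 93.0% were called for H3K4me3 (92.7 to 93.3), and of the H3K4me3 bins 46.8% were called for H3R2me2s (46.4 to 47.2). These overlaps rest on fixed limits of reads. The level of each mark was therefore also measured against its own local background, the mean of bins not chosen for either mark within the 20 kb around a bin.

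Local background near the chosen bins was higher than the genome-wide background in both libraries. For H3R2me2s it was 4.56 reads per bin, or 1.89 times the 2.41 reads found more than 5 kb from any chosen bin. For H3K4me3 it was 8.28 reads, or 2.71 times the genome-wide 3.05 reads. A local background was missing for 461 bins with too few unchosen neighbours. Where both marks were called, the median level was 6.70 times local background for H3R2me2s (quartiles 4.31 to 11.4) and 19.8 times for H3K4me3 (11.7 to 31.6).

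Bins called for one mark alone were not empty of the other. In the 29830 bins called for H3K4me3 alone, H3R2me2s had a median of 1.93 times its local background (1.37 to 2.57), and 47.3% of them reached 2 times. Among bins far from any chosen bin 11.3% reached 2 times, where low counts make such a ratio common. In the 1984 bins called for H3R2me2s alone, H3K4me3 had a median of 1.62 times local background (1.10 to 2.20), and 32.9% reached 2 times, beside 7.88% of far bins. These bins are high in 1 mark and low in the other because the limits chose them so.

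Around the limits the other mark changed without a step. Bins with 13, 14, 15 and 16 H3R2me2s reads had median H3K4me3 counts of 21, 33, 45 and 58. Bins with 23, 24, 25 and 26 H3K4me3 reads had mean H3R2me2s counts of 7.32, 7.54, 7.63 and 7.72.

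The amount of H3R2me2s relative to H3K4me3 was lowest at intermediate H3K4me3 and higher at both ends. The measure is net H3R2me2s per net H3K4me3, where net means reads less local background and each library is scaled to its total reads (counts per 1000000, CPM). A value of 1 has no meaning of its own, since the antibodies were not calibrated against each other, and only differences between sets of bins are read. Bins were ranked on a random 50% of the H3K4me3 library, and levels were taken from its remaining reads. In 5 classes from weak to strong H3K4me3, of 11131 to 11431 bins each, the ratio was 0.385 (0.378 to 0.392), 0.312, 0.293 (0.290 to 0.295), 0.313 and 0.374 (0.373 to 0.375). Mean H3K4me3 in these classes went from 1.89 to 21.1 CPM and mean H3R2me2s from 1.16 to 8.31 CPM.

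The fall from the weakest to the middle class was therefore present against local background as well as against the genome-wide one. With the genome-wide background the ratio was 0.487 in the weakest class, 0.340 in the middle and 0.382 in the strongest. It was then lowest in the fourth class, at 0.333. Local background took the excess of the weakest over the strongest class from a wide gap to a narrow one. That remaining gap rested on a segment of chromosome 2 at 101400001 to 101600000 (mm9), which holds 27 chosen bins. Without it the weakest class had 0.373 (0.367 to 0.380) and the strongest 0.374 (0.373 to 0.375), while the middle class stayed at 0.293. The segment holds the region that ranked first for the ratio in these same data, so a lower ratio without it follows from that choice. Other regions of high ratio were not left out for comparison. In the weakest class the mean H3R2me2s level was 1.16 CPM on a background of 0.665 CPM, so its ratio is the one most open to the choice of background. With limits of 30 and 50 reads, which leave out the weakest of these bins, the ratio rose through the classes, from 0.287 in the weakest to 0.307 in the middle and 0.383 in the strongest.

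**Figure D1:**
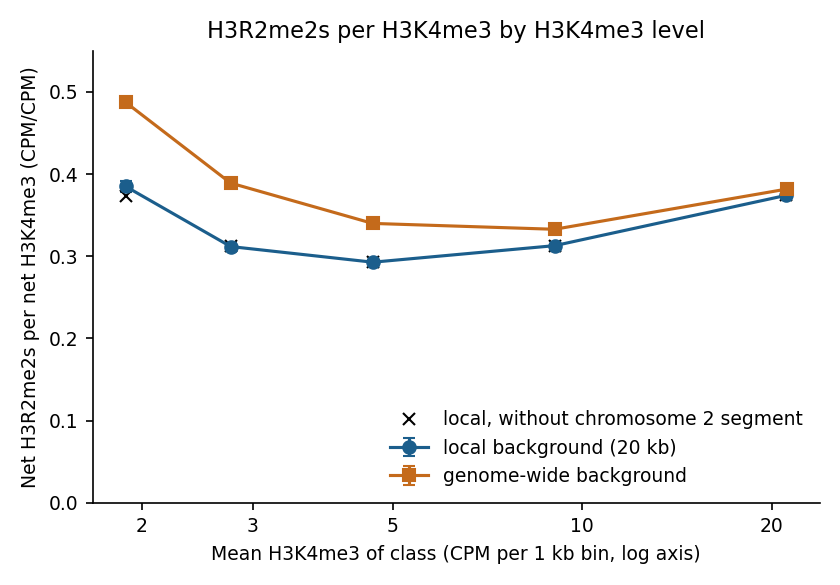
Net H3R2me2s per net H3K4me3 (vertical axis, CPM per CPM) in 5 classes of H3K4me3 level, placed at the mean H3K4me3 of the class (CPM per 1 kb bin, log axis); bars are 95% counting intervals. The curve with local background falls from 0.385 to 0.293 and returns to 0.374, and the crosses without the chromosome 2 segment start at 0.373.

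Ranked on H3R2me2s in place of H3K4me3, the ratio also dipped, but fell less from the weakest class. Classes were set on 1 random part of the H3R2me2s reads and measured on the other part. The ratio in 4 classes of rising H3R2me2s was 0.341 (0.336 to 0.346), 0.315, 0.342 and 0.405 (0.403 to 0.406). The lowest value again lay inside the range of levels and not at its end, and the strongest class here stood well above the weakest.

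Of the weakest, middle and strongest classes, the middle was lowest on each of the 20 chromosomes with 100 or more chosen bins. Among all 5 classes the second was lowest on chromosome 8 (0.291, middle 0.307) and chromosome X (0.256, middle 0.285). The weakest class lay above the middle class on 20 of 20 chromosomes, and the strongest class lay above the middle class on 20 of 20. The weakest class lay above the strongest on 9 of them. Over chromosomes the ratio ranged from 0.295 on chromosome X through a median of 0.370 to 0.530 on chromosome 2 in the weakest class. It ranged from 0.268 to 0.310 in the middle class and from 0.358 to 0.390 in the strongest. Chromosome 2 had 0.386 in the weakest class without the segment named above. Chromosomes of 1 library are not replicates, and their range shows only how even the pattern was along the genome.

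**Figure D2:**
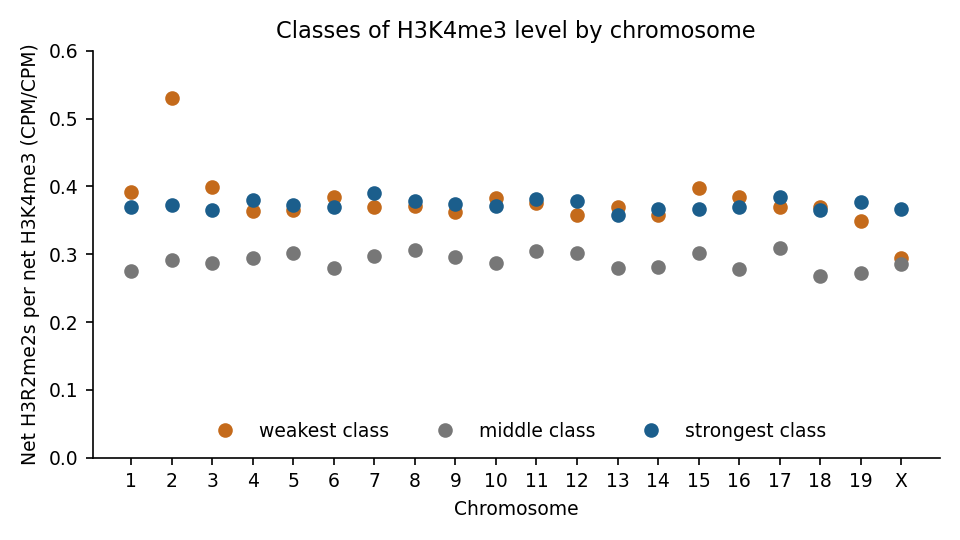
Net H3R2me2s per net H3K4me3 (CPM per CPM) by chromosome for the weakest, middle and strongest class of H3K4me3. The middle class (0.268 to 0.310) lies lowest on every chromosome shown, chromosome 2 stands apart in the weakest class at 0.530, and chromosome X has the lowest weakest class at 0.295.

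Chromosome X differed from the other chromosomes in its weak bins. Its ratio was 0.295 in the weakest class and 0.256 in the class above, both the lowest of the 20 chromosomes, while its strongest class had 0.367. Background on chromosome X was 0.551 of the genome-wide level for H3R2me2s and 0.576 for H3K4me3. Chromosome X also had the highest share of H3R2me2s bins called for H3K4me3, at 98.9% (97.6 to 99.6), and the lowest share in the other direction, at 42.0% (39.3 to 44.8). A lower background makes fixed limits of reads harder to reach there, and the part of this in the shares was not tested.

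Isolated weak H3K4me3 bins carried relatively more H3R2me2s than weak bins inside wider regions. In the weakest class, bins that stood alone had a ratio of 0.488 (0.472 to 0.505) over 2547 bins, and bins within regions of 2 kb or more had 0.358 (0.350 to 0.365) over 8636 bins. Without the chromosome 2 segment 2546 isolated bins remained and had 0.433 (0.418 to 0.449), and the others had 0.358. The value of the isolated bins was thus open to very few bins, which the counting interval does not cover. Other regions of high ratio were not left out. In the second class the values were 0.338 (0.327 to 0.349) for isolated bins and 0.307 (0.303 to 0.312) for the others. Over all levels, the width of the H3K4me3 region made little difference: the ratio was 0.325 in regions of 2 kb and lay between 0.346 and 0.351 in all wider classes. Regions of 1 kb had 0.356, and 0.343 without the chromosome 2 segment.

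Within regions, H3R2me2s was relatively lower at the edges than inside. Regions of 4 kb or more were outlined on 50% of the H3K4me3 reads, and their outermost bins were set against the rest. Net H3R2me2s was 1.09 CPM in edge bins and 3.98 CPM in interior bins, while net H3K4me3 was 3.58 and 11.1 CPM. The ratio was 0.304 (0.301 to 0.306) at edges and 0.358 (0.357 to 0.360) inside, so that the edge had 0.847 of the interior value (0.839 to 0.855). From the edge inwards the ratio was 0.304, 0.352, 0.374 and 0.358 in successive bins, and 0.347 in the fifth bin and beyond.

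Edge bins hold less H3K4me3 than interior bins, so edges were also compared with interior bins of like level. Among bins with 30 to 44 H3K4me3 reads in the part used for outlining, the ratio was 0.274 (0.267 to 0.280) at edges and 0.298 (0.293 to 0.303) inside. Among bins with 70 or more it was 0.323 (0.319 to 0.328) and 0.370 (0.369 to 0.372). Interior bins of this top class still had more H3K4me3, at 19.4 against 13.7 net CPM. In the lowest class, with 13 to 19 reads, the values were 0.337 (0.328 to 0.345) and 0.339 (0.327 to 0.351), and the intervals overlapped. By width of region, the edge had 0.826 of the interior value in regions of 4 to 5 kb, 0.868 in those of 6 to 9 kb and 0.925 (0.885 to 0.965) in those of 10 kb or more.

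**Figure D3:**
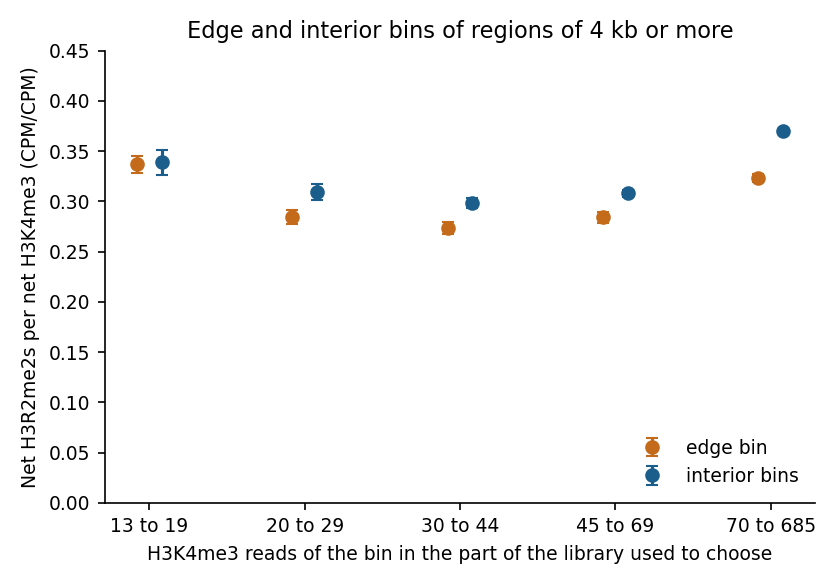
Net H3R2me2s per net H3K4me3 (CPM per CPM) in edge bins and interior bins of H3K4me3 regions of 4 kb or more, by class of H3K4me3 reads in the part of the library used for outlining; bars are 95% counting intervals. Edge bins lie below interior bins in the 4 upper classes (0.274 against 0.298 at 30 to 44 reads), and the intervals overlap in the lowest.

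H3R2me2s leaned to the same side of the H3K4me3 summit as H3K4me3 did. H3K4me3 often extends further to one side of its highest point, and start sites could not be used to orient it here. The summit, the highest 100 bp bin, and the fuller side from 200 bp to 2 kb away were therefore set on 50% of the H3K4me3 reads. In 18296 regions the fuller side held 66.5% of net H3K4me3 in the remaining reads (66.4 to 66.6) and 67.9% of net H3R2me2s (67.8 to 68.0). In 5 classes of rising unevenness H3K4me3 had 52.9%, 58.2%, 64.0%, 70.9% and 82.8% on that side, and H3R2me2s had 53.5%, 58.9%, 65.8%, 73.1% and 84.6%. H3R2me2s followed H3K4me3 in each class. Its share was higher by 1.41 points over all regions (1.25 to 1.57), but with the genome-wide background it was lower, by 0.31 points (-0.44 to -0.18), so which mark was the more uneven depends on the background.

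Net of local background, H3R2me2s had fallen further than H3K4me3 at equal distances from the summit. These levels were not computed with the genome-wide background, under which the difference in fuller-side share reversed. On the fuller side, 1 kb from the summit, H3K4me3 stood at 23.2% of its summit level and H3R2me2s at 19.4%. On the other side they stood at 8.84% and 6.69%. At 500 bp the levels were 31.01% and 27.1% on the fuller side and 18.1% and 14.3% on the other.

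**Figure D4:**
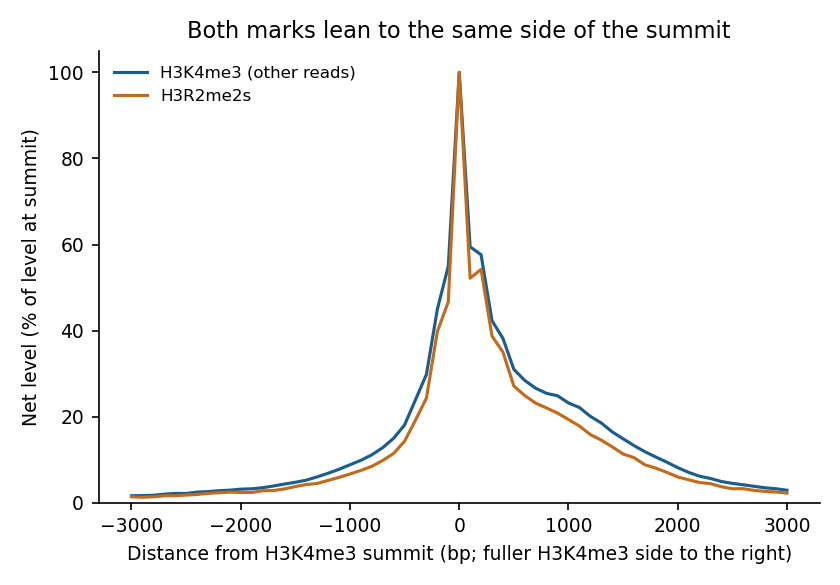
Mean level of both marks net of local background (vertical axis, percent of the level at the summit) against distance from the H3K4me3 summit (bp). Each of 18296 regions is turned so that its fuller H3K4me3 side lies to the right. Both curves have a shoulder on the right, where H3K4me3 is at 23.2% and H3R2me2s at 19.4% of the summit level at 1000 bp.

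The highest points of the marks lay close together. In 11847 regions that held called bins of both marks, the highest 100 bp bins of H3R2me2s and H3K4me3 were the same bin in 42.1% (41.3 to 43.0) and the same or adjoining bins in 54.3% (53.4 to 55.2). The median distance was 100 bp and the upper quartile 400 bp. The summits were within 500 bp in 81.1% of regions and over 1000 bp apart in 1033 regions, or 8.72%.

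A summit is placed only as well as the reads allow, and parts of 1 library show how well that is. The reads were divided at random into 2 parts of H3R2me2s and 4 of H3K4me3, each of about the same total size (3461023 to 3475601 reads). The parts are not equal where the summits lie, since the chosen bins held 18.6% of H3R2me2s reads and 45.3% of H3K4me3 reads. H3K4me3 summits therefore rest on more reads. Between a part of H3R2me2s and a part of H3K4me3, 43.3% of summits were in the same or adjoining bins (42.4 to 44.2). Between the H3R2me2s parts it was 42.7% (41.8 to 43.6), and between H3K4me3 parts 48.6% (47.7 to 49.5). The value between marks exceeded that between the H3R2me2s parts by 0.59 points and lay below that between the H3K4me3 parts. The interval of this difference (-0.68 to 1.86) takes the shares as independent. Both use the same regions and share an H3R2me2s part, so it is only approximate. A displacement between the marks that costs a few points of agreement was not detectable at this depth. Where the value between marks would lie without a displacement was not measured. In the regions with most H3R2me2s reads, 3903 of them, the share between marks was 41.2%, beside 42.0% between H3R2me2s parts and 41.5% between H3K4me3 parts.

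**Figure D5:**
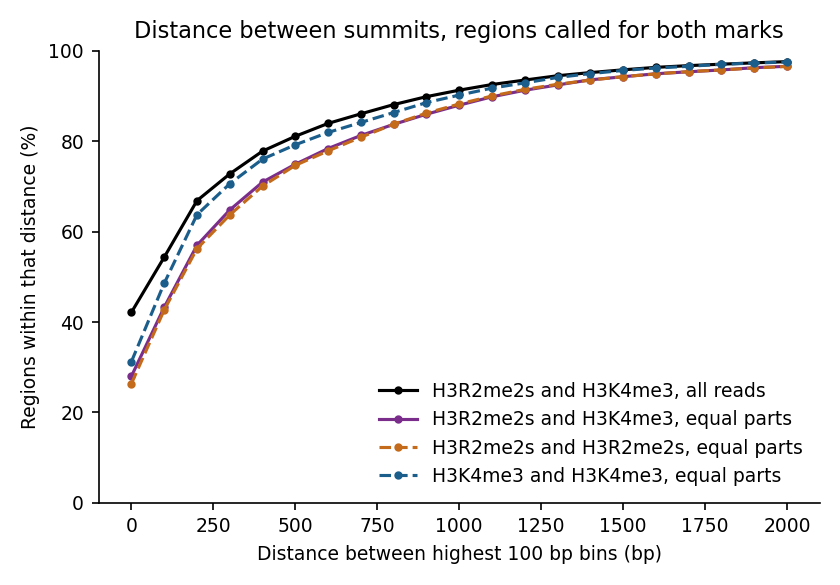
Percent of 11847 regions (vertical axis) whose summits lie within a given distance (horizontal axis, bp), for all reads and for parts of equal total reads. The curve between marks lies close to that between the H3R2me2s parts (43.3% and 42.7% at 100 bp), below that between the H3K4me3 parts (48.6%).

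Summits lay farther apart in the widest regions in all 3 pairings, as width alone allows. A region of 1 kb cannot hold summits over 1000 bp apart, and a wider region offers more bins for a summit. Agreement by chance at each width was not computed, so the shares are compared between pairings and not between widths. In regions of 1 kb, with equal parts, 52.3% of summit pairs between marks were in the same or adjoining bins, 47.4% between H3R2me2s parts and 59.1% between H3K4me3 parts. In regions of 10 kb or more the share was 32.4% between marks, 33.6% between H3R2me2s parts and 35.2% between H3K4me3 parts. Summits over 1000 bp apart were found in 132 of these 438 regions between marks, in 114 between H3R2me2s parts and in 111 between H3K4me3 parts. Across the 100 bp bins within regions of 3 kb or more, Pearson's r had a median of 0.66 between the marks, 0.60 between H3R2me2s parts and 0.77 between H3K4me3 parts over 9128 regions. These values describe bins that share mappability and fragment ends, and they are not independent.

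Where the summits differed, H3R2me2s was mostly found on the fuller H3K4me3 side. Of 6635 regions with summits of equal parts at least 200 bp apart, the H3R2me2s summit was on that side in 77.3% (76.3 to 78.3). A second part of H3K4me3 reads was on that side in 81.5% of 6057 regions (80.5 to 82.4). That part holds more reads in the chosen bins than the H3R2me2s part does.

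Many H3K4me3 regions had a pair of summits with a dip between them. Start sites with a nucleosome-poor stretch have such a form, but start sites could not be used here. In 8930 regions, 50% of the H3K4me3 reads gave a highest and a second summit 300 to 1500 bp apart (median 700 bp), with a dip to 50% or less of the second summit. H3R2me2s showed the same form. At the highest summit, the second and the dip, H3K4me3 in the remaining reads had 3.16, 2.29 and 0.580 CPM per 100 bp, and H3R2me2s had 1.38, 0.946 and 0.252 CPM. With no background taken off, the dip stood at 0.213 of the mean of both summits for H3K4me3 (0.210 to 0.215). It stood at 0.217 for H3R2me2s (0.213 to 0.220). Background is a larger part of the weaker H3R2me2s signal. In the strongest class of H3K4me3 bins it was 0.659 of 8.31 CPM for H3R2me2s and 0.624 of 21.1 CPM for H3K4me3. Depths net of background were not compared. The depth of the dip was set by the choice of bins on H3K4me3 reads, and H3R2me2s took no part in that choice. The libraries share mappability, and its part in the dips was not tested.

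H3R2me2s also tended to be higher at the same summit of the pair. It was higher at the first than at the second in 69.3% of 8125 regions without a tie (68.3 to 70.3), beside 72.5% of 8551 for the remaining H3K4me3 reads (71.5 to 73.4). Its own highest bin in the region was at or next to the first summit in 47.1% of regions, the second in 19.1% and the dip in 4.27%. For the remaining H3K4me3 reads these were 53.8%, 18.8% and 3.98%. Those reads are about as many as the H3R2me2s reads over the genome but more at these summits, so the shares are not matched for depth.

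The H3R2me2s bins without an H3K4me3 call lay both beside H3K4me3 bins and away from them, but nearer to them than bins at large did. Of the 1984 bins, 445 adjoined an H3K4me3 bin and 570 more lay within 5 kb. A further 827, or 41.7%, were 6 to 50 kb away and 142, or 7.16% (6.06 to 8.38), were over 50 kb away. Of the 2234829 bins with a read in either library, 2004769 lay more than 5 kb from any chosen bin of either mark. Median H3K4me3 was 19, 13, 9 and 8 reads in these classes from the nearest to the farthest, which is 2.07, 1.46, 1.45 and 1.78 times its local background.

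Regions made by joining chosen bins no more than 1 kb apart numbered 19700. Among 14455 of them with at least 60 reads of both marks together and a local background, the median net ratio was 0.335. The middle 50% lay between 0.270 and 0.394, and 90% lay between 0.150 and 0.542. The ratio was above 1, a value with no meaning of its own here, in 113 regions, and net H3R2me2s was below 0 in 74.

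The highest ratios were far outside this range. Regions were ranked by the bound of the exact binomial interval of the ratio of CPM that lies nearest to the median. First was chromosome 2, 101481001 to 101491000, with 3401 H3R2me2s reads and 417 H3K4me3 reads, at 71.6 and 6.10 times local background. Its H3R2me2s summit (128 reads in 100 bp, where H3K4me3 had 3) was 6900 bp from its H3K4me3 summit (23 reads), so the 2 signals were at different places in the region. At chromosome 1, 24618001 to 24622000, there were 296 and 89 reads, at 47.4 and 10.4 times local background, with summits 600 bp apart.

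Of the next 4 regions, 2 had their summits in the same bin. At chromosome 17, 39980001 to 39986000, 357 H3R2me2s reads and 173 H3K4me3 reads stood at 77.4 and 26.8 times local background. Both marks were highest at 39980301 to 39980400, with 29 and 30 reads. At chromosome 2, 22444001 to 22446000, there were 94 and 28 reads with a shared summit of 17 and 9 reads. H3K4me3 was not called in any bin of this region. Chromosome 6, 120660001 to 120664000, had 48 and 25 reads, and chromosome 14, 52807001 to 52810000, had 37 and 23. H3K4me3 was at 1.05 and 1.73 times local background there and was not called in any bin of either. Their summits were 1800 and 1600 bp apart, on few reads. Whether the preparations hold the sequence of these regions of high ratio in different amounts was not tested, as no input library was used, and this holds for the chromosome 2 segment too.

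The lowest ratios, in order of rank, were first at narrow regions. Chromosome 10, 121273001 to 121274000, had 63 H3K4me3 reads and 0 H3R2me2s reads, and chromosome 12, 74154001 to 74156000, had 77 and 2. Local background predicts 1.74 and 6.50 H3R2me2s reads there, so H3R2me2s was not above background in either. Of the 6 lowest, the one with most reads ranked last. At chromosome 13, 83710001 to 83716000, 917 H3K4me3 reads stood at 10.7 times local background and 92 H3R2me2s reads at 2.10 times, a net ratio of 0.116 (ratio of CPM 0.201, 0.161 to 0.250). The region at chromosome 13, 83662001 to 83673000, which lies less than 50 kb away, was among the 3 with most net H3K4me3. It had 3626 H3K4me3 reads, 688 H3R2me2s reads and a net ratio of 0.352, near the median.

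The regions ranked between these had H3K4me3 but no H3R2me2s call. Chromosome 18, 86769001 to 86775000, was called for H3K4me3 in 6 bins, with 387 H3K4me3 reads at 11.9 times local background and 33 H3R2me2s reads at 1.43 times. Chromosome 15, 101097001 to 101099000, had 195 and 13 reads, at 11.6 and 1.64 times. Chromosome X, 150784001 to 150786000, had 120 and 7 reads.

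Regions of 5 kb or less with widely separated strong summits were few. Of 1411 regions with 20 or more reads in both summit bins, 991, or 70.2%, had them in the same or adjoining bins, and 25 had them over 1000 bp apart. The most distant were 1700 bp apart at chromosome 2, 146837001 to 146841000, and at chromosome 11, 40545001 to 40550000. At the former, the H3R2me2s summit held 24 H3R2me2s reads and 78 H3K4me3 reads, and the H3K4me3 summit held 18 and 96. At the latter, the counts were 20 and 71, and 15 and 80. Distances of 1600 bp were found at chromosome 2, 119301001 to 119306000, and chromosome 7, 97126001 to 97131000. In the chromosome 2 region H3R2me2s had 23 reads at its own summit and 10 at that of H3K4me3, where H3K4me3 had 56 and 60. In the chromosome 7 region H3R2me2s had 20 and 17, and H3K4me3 71 and 79. At chromosome 14, 62055001 to 62060000, the distance was 1500 bp, with 20 and 8 reads of H3R2me2s and 49 and 71 of H3K4me3.

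The 3 regions with most net reads of each mark made up 4 regions in all, of which 2 had their summits in the same bin. Chromosome 12, 114658001 to 114670000, had 172 net CPM of H3R2me2s and 308 of H3K4me3, a net ratio of 0.560, and both marks were highest at 114665901 to 114666000. Chromosome 11, 11586001 to 11597000, had 106 and 292 net CPM, a net ratio of 0.363, and a shared summit at 11586801 to 11586900 with 56 and 146 reads. At chromosome 13, 83662001 to 83673000, the summits were 600 bp apart, with 37 and 132 reads. In the chromosome 2 region at 101481001, which had most net H3R2me2s (484 net CPM), they were 6900 bp apart, as given above.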

How the data were processed

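The authors deposited 1 line per mapped read of 39 bases, without scaling, so the values are raw read counts. Per the submitters' processing notes the build was mm9. Per the labels' protocols, sonicated chromatin was amplified with 15 PCR cycles and 100 to 500 bp fragments were taken. The aligner, and whether repeated reads were removed, is not given in the sources used here. Reads of the combined-mark library were not used.

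Read starts were moved 75 bp and counted in bins of 1 kb and 100 bp (Python 3.11.15, numpy 2.4.6, scipy 1.17.1). Local background was the mean of unchosen bins within 10 kb on either side, with at least 5 such bins. Bins that reached 13 H3K4me3 reads or 8 H3R2me2s reads in the parts used for ranking were kept out of it too. Shares of bins or regions have exact Clopper-Pearson intervals, and net ratios have Poisson intervals that include the background's counts. The random division of reads was drawn once, with reads of the same start and strand kept in 1 part. No test between antibodies was possible with 1 library each. Named regions were the 6 highest and 6 lowest ratios, the 5 largest summit distances in regions of up to 5 kb and the 3 with most net reads of each mark. The functions were tested on simulated data. The bins, limits and lists were chosen with earlier results of these data known.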

Additional observations from a re-analysis of the deposited data

How the results depend on the processing

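Of 127 values recomputed under 12 settings, 57 stayed within the counting interval of the reported value, 69 moved beyond it and 1 reversed. The intervals are narrow, so small moves count. The comparisons of the marks' shares on the fuller side, of summit placement and of edges at like level, and background without bins within 2 kb of a chosen bin, were added after seeing the data. No paired analysis was possible because there were no replicates, and for that reason no replicate could be omitted. Settings are given in the order share of H3R2me2s bins called for H3K4me3, share of H3K4me3 bins called for H3R2me2s, net ratio over all chosen bins, net ratio in the weakest, middle and strongest class, share of summits in the same or adjoining bins, edge over interior, and share of H3R2me2s on the fuller side, with only moved values printed. The median summit distance was 100 bp in each setting run.

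Limits of 30 and 50 reads gave 99.8%, 37.5%, 0.347, 0.287, 0.307, 0.383, 59.9%, 0.781 and 68.5%. H3K4me3 thinned to the number of H3R2me2s reads gave 86.3%, 71.7%, 0.361, 0.293, 0.312, 0.384, 0.793 and 68.8%. In these 2 settings the ratio rose from the weakest class to the strongest: by construction they leave out the weak bins in which the ratio was high, so the dip at intermediate H3K4me3 is seen only with the lower limit. One read per start and strand gave 95.7%, 45.03%, 0.370, 0.371, 0.296, 0.410, 53.1%, 0.789 and 68.1%. The cause of these moves was not tested.

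Genome-wide background gave a net ratio of 0.376 over all bins, 0.487, 0.340 and 0.382 in the classes, 0.942 for edge over interior and 64.9% on the fuller side. The median of all bins in 20 kb gave 0.344, 0.348, 0.274, 0.371, 0.788 and 68.9%. Background from 50 kb gave 0.354 over all bins, 0.299 in the middle class, 0.856 at edges and 67.4% on the fuller side. Background without bins within 2 kb of a chosen bin gave 0.353, 0.375 in the strongest class and 67.6%. Without the chromosome 2 segment the values were 0.351 over all bins and 0.373 in the weakest class. Reads not moved gave 93.3%, 0.377 in the weakest class, 53.4% of summits and 67.6% on the fuller side. Reads moved 150 bp gave 93.4%, 50.02% of summits and 66.9% on the fuller side. Summing 3 neighbouring bins gave 60.5% of summits and 67.3% on the fuller side.

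The difference between the marks on the fuller side reversed to -0.31 points with the genome-wide background. It was 1.73 with reads not moved, 1.58 with reads moved 150 bp, 2.11 with 1 read per start and strand, 1.78 with H3K4me3 thinned, 1.66 at the higher limits, 1.25 with background from 50 kb, 1.99 with the median and 1.68 with summed bins. The difference in summit placement between marks and between H3R2me2s parts was 3.13 points with reads not moved and 2.37 with reads moved 150 bp. It was -2.34 with H3K4me3 thinned, where the H3K4me3 parts are by construction smaller in total reads than the H3R2me2s parts. Edge over interior among bins of 30 to 44 reads was 0.884 with 1 read per start and strand and 0.833 with H3K4me3 thinned. It lay between 0.907 and 0.931 in the other settings run, which did not include the higher limits.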
